A study of Hipposideros armiger and Mus musculus with 20 samples.

Results

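The genes described here are 7 that make glycerol 3-phosphate, build triglyceride from it or help to break triglyceride down: Gpd1, Gpd2, Gk, Agpat2, Lpin1, Mogat1 and Abhd5. They were taken by symbol from a deposited table of 14871 genes, and 7 of 7 were found. Its unit is FPKM, a read density that is divided by transcript length and by the sequencing of the library, and it covers 20 RNA-seq libraries of fat. In ICR mice, brown fat from between the shoulder blades (iBAT) and white fat from under the skin (sWAT) were sampled after 7 days at 10 °C or at 30 °C. In the great roundleaf bat, Hipposideros armiger, iBAT, intra-abdominal white fat (aWAT) and sWAT were sampled after the same times at the same temperatures. Each of the 10 groups had 2 libraries, of 1 female and 1 male. No age or transgene is given, and the labels do not say whether animals were pooled or whether the fat depots of 1 sex came from the same animal. The p-values therefore measure the spread between these libraries only.

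Triglyceride is built on a glycerol 3-phosphate backbone. Gpd1, the cytosolic glycerol 3-phosphate dehydrogenase, makes the backbone from a glycolytic intermediate, Gk (glycerol kinase) makes it from free glycerol, and Gpd2, the mitochondrial dehydrogenase, reoxidises it and hands its electrons to the respiratory chain, so that Gpd1 and Gpd2 together form the glycerol phosphate shuttle. Acyltransferases then load fatty acids: Agpat2 turns lysophosphatidate into phosphatidate, Lpin1 (lipin 1) removes the phosphate to give diacylglycerol, and Mogat1 offers another route to diacylglycerol from monoacylglycerol. Abhd5, also called CGI-58, works on the opposite side, as the co-activator of the triglyceride lipase Pnpla2 on the lipid droplet. White fat is known for low glycerol kinase activity, whereas brown fat has more of it and is rich in Gpd2; loss of AGPAT2 in people causes congenital lipodystrophy.

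In the GENCODE annotation of GRCm38, which may not be the build used for the table, the 7 are protein-coding genes. Agpat2 (ENSMUSG00000026922) lies on chromosome 2 at 26593057-26604417, on the minus strand. Gpd2 (ENSMUSG00000026827) lies on chromosome 2 at 57237635-57370719 and Gpd1 (ENSMUSG00000023019) on chromosome 15 at 99717515-99725005. Gk (ENSMUSG00000025059) lies on the X chromosome at 85701937-85776819, Lpin1 (ENSMUSG00000020593) on chromosome 12 at 16535669-16610966, Mogat1 (ENSMUSG00000012187) on chromosome 1 at 78510991-78538173 and Abhd5 (ENSMUSG00000032540) on chromosome 9 at 122351608-122381524. All but Lpin1 overlap a gene on the other strand, and whether counting used strand is not stated, so reads of such partners could not be told apart. For Agpat2 the partners Egfl7 and Gm20532 are themselves in the table.

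The FPKM of all genes added up to 263338 to 305098 per mouse library and 294103 to 358510 per bat library. Relative depth, read from the low values against 1 library of each species, was 0.95 to 1.109 for the mouse and 0.624 to 1.081 for the bat. All 6 fat cell markers were at 1 FPKM or more in every group. Ucp1, the uncoupling protein of brown fat, lay at 3688 and 5119 FPKM in mouse iBAT at 10 °C, against 192 and 49.9 FPKM at 30 °C. Skeletal muscle markers were unevenly present: their sum over 8 genes was 25.0 FPKM in the female and 858 FPKM in the male of mouse iBAT at 10 °C, against 1833 and 1520 FPKM at 30 °C. In mouse sWAT the same sum was 21.8 and 1535 FPKM at 10 °C, against 30.4 and 11.4 FPKM at 30 °C, and in bat sWAT it was 312 and 587 FPKM at 10 °C, against 12.3 and 2.04 FPKM at 30 °C. Bat iBAT and aWAT had at most 2.11 FPKM. B lymphocyte markers summed to 174 and 2.12 FPKM in mouse sWAT at 10 °C, against 458 and 411 FPKM at 30 °C. The part of muscle or lymphocytes in the results below was not tested. In bulk tissue, fewer cells of a type and less RNA per cell cannot be told apart. Bat reads were assigned to mouse genes in a way that is not given, so levels were not compared between species, only changes within them.

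Below, libraries are given as female and then male. Changes are log2 ratios of FPKM + 1 with their standard error, less the median change of all genes in that comparison. The p-values are from limma, adjusted by Benjamini and Hochberg over all genes tested, and a gene was called at an adjusted p under 0.05. Every p-value and call belongs to the change before this median is taken off, not to the printed change. That median ran from -0.57 to 0.42 over the comparisons. Because of the added 1, these ratios understate the change of genes at low FPKM. Whether groups of 2 libraries overlapped is given as a description only, since its share over all genes was not counted.

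In mouse brown fat the cold raised both dehydrogenases of the glycerol phosphate shuttle. Gpd1 had 4524 and 4334 FPKM at 10 °C, against 659 and 596 FPKM at 30 °C (3.12 ± 0.53, adjusted p = 0.0228). Gpd2 had 180 and 219 FPKM at 10 °C, against 61.4 and 67.4 FPKM at 30 °C (1.91 ± 0.18, adjusted p = 0.0087). Neither gene's groups overlapped, and in both the sexes lay close together. Gk had 15.6 and 23.2 FPKM at 10 °C, against 4.29 and 4.39 FPKM at 30 °C. Its groups did not overlap either, but the change of 2.21 ± 0.70 missed the threshold (adjusted p = 0.109). Fitted on the mouse iBAT libraries alone, Gk was called (adjusted p = 0.0131).

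Agpat2 had the largest change of the 7 in this tissue. It stood at 981 and 914 FPKM in mouse iBAT at 10 °C, against 55.9 and 44.2 FPKM at 30 °C, a ratio of means of 18.9 (4.52 ± 0.35, adjusted p = 0.0051). The libraries of each temperature were close together and far from those of the other. Egfl7, its partner on the other strand, did not share the pattern, with 27.0 and 23.7 FPKM at 10 °C, against 42.3 and 29.8 FPKM at 30 °C. Lpin1 followed with 78.9 and 93.4 FPKM at 10 °C, against 34.6 and 41.9 FPKM at 30 °C, without overlap, but it was not called (1.45 ± 0.36, adjusted p = 0.0771). Fits on the mouse iBAT libraries alone (adjusted p = 0.0156) or with sex as a term (adjusted p = 0.0453) did call Lpin1. Mogat1, the monoacylglycerol acyltransferase, was the lowest of the 7 in brown fat. It rose to 11.1 and 9.41 FPKM at 10 °C, against 1.48 and 3.28 FPKM at 30 °C (2.08 ± 0.44, adjusted p = 0.0434). This call was lost with no filter on low values (adjusted p = 0.0688), with 5 added to FPKM (adjusted p = 0.0671) and under quantile normalization (adjusted p = 0.0750), under which Gpd1 was not called either (adjusted p = 0.0557).

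Abhd5, the lipase co-activator, had 40.6 and 36.9 FPKM in mouse iBAT at 10 °C, against 28.4 and 36.3 FPKM at 30 °C. The male libraries were nearly equal, and the change of 0.56 ± 0.38 had an adjusted p of 0.669. Of the 7 genes, 4 were thus called higher and 0 lower, where 2.84% of all genes were called higher and 11.2% lower. The median of the 7 was 2.08, against 0 for all genes by construction. The muscle marker sum was lower in both cold iBAT libraries than in the warm ones. Without any 1 of the 4 mouse iBAT libraries no member was called: Agpat2 then changed by 4.40 to 4.63 with adjusted p-values of 0.0580 to 0.0640, a design in which 1 group has a single library whose spread is taken from the other groups. In these 4 fits 1 to 3 of all 10689 genes were called higher and 0 lower, so the count of 0 is not particular to the members.

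In mouse sWAT the cold raised 5 of the 7 genes. Brown fat markers were also higher: Ucp1 had 1229 and 2977 FPKM at 10 °C, against 1.19 and 1.53 FPKM at 30 °C, and the sum of 7 such markers was 2648 and 5315 FPKM at 10 °C, against 21.1 and 27.8 FPKM at 30 °C. Agpat2 had 662 and 750 FPKM at 10 °C, against 26.1 and 57.5 FPKM at 30 °C (4.51 ± 0.35, adjusted p = 0.0047). Gpd1 had 1757 and 2224 FPKM at 10 °C, against 88.0 and 287 FPKM at 30 °C (3.99 ± 0.53, adjusted p = 0.0118). In both, the female at 30 °C was the lowest of the 4 libraries, and the groups were far apart. The fat cell markers summed to 2226 and 3165 FPKM at 10 °C, against 1336 and 3025 FPKM at 30 °C, also lowest in that female. The part of fat cell content in the changes of this depot was not tested. Gpd2 rose to 63.7 and 77.9 FPKM at 10 °C, against 6.10 and 7.77 FPKM at 30 °C (3.54 ± 0.18, adjusted p = 0.0017). Its ratio of cold to warm was nearly the same in females (10.4) and males (10.0). Lpin1, the phosphatidate phosphatase, had 68.5 and 67.5 FPKM at 10 °C, against 7.92 and 19.4 FPKM at 30 °C (2.72 ± 0.36, adjusted p = 0.0123).

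Glycerol kinase was at the edge of detection in warm mouse sWAT. Gk had 8.30 and 49.5 FPKM at 10 °C, against 1.07 and 0.991 FPKM at 30 °C (3.78 ± 0.70, adjusted p = 0.0207). The groups did not overlap, but the male at 10 °C, which also had the high muscle sum of 1535 FPKM, was far above the female. Without this male the change was 2.45 and still called (adjusted p = 0.0138), without the female at 10 °C it was 5.11 (adjusted p = 0.000251), and it was not called without the female (adjusted p = 0.106) or the male (adjusted p = 0.0582) at 30 °C. Mogat1 had 15.8 and 22.5 FPKM at 10 °C, against 4.95 and 12.8 FPKM at 30 °C (1.50 ± 0.44, adjusted p = 0.0857). Abhd5 had 39.2 and 59.0 FPKM at 10 °C, against 15.5 and 34.6 FPKM at 30 °C (1.39 ± 0.38, adjusted p = 0.0739). These last 2 genes were each higher in both cold libraries than in either warm one, short of the threshold. With sex as a term in the fit both passed it (adjusted p = 0.0405 for Mogat1 and 0.0359 for Abhd5).

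Among all genes in mouse sWAT, 7.06% were called higher in the cold and 26.8% lower. The median of the 7 was 3.54, and 0 of them were called lower. Fitted on the 4 sWAT libraries alone, 0 of the 7 were called, with adjusted p-values of 0.110 for Gpd2 and 0.120 for Agpat2, and likewise 0 of all 10689 genes. Over the cold change of iBAT minus that of sWAT, where 0.0936% of all genes were called, 0 of the 7 were called and 1 had an unadjusted p under 0.05. This was Gpd2, whose change was smaller in iBAT by 1.61 ± 0.26 on the log2 scale (adjusted p = 0.0881). Agpat2 differed by 0.03 ± 0.50 between these depots.

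**Figure D1:**
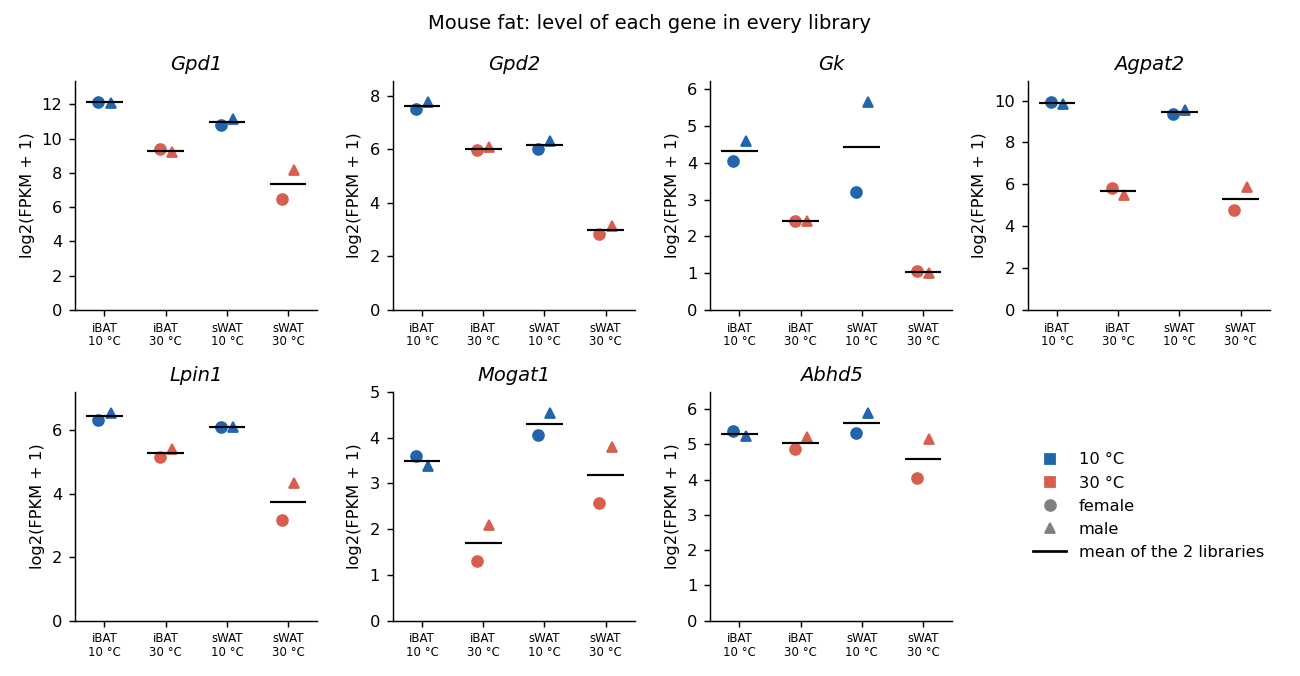
Level of each of the 7 genes in the 8 mouse libraries as log2(FPKM + 1), with 10 °C left of 30 °C in each depot, circles for females, triangles for males and a bar at the mean of the 2 libraries. Each of the 7 genes is higher in every cold library than in the warm libraries of the same depot, barely so for Abhd5 in iBAT (36.9 against 36.3 FPKM in the males). Gk in the male sWAT library at 10 °C (49.5 FPKM) stands above the female (8.30 FPKM).

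In bat brown fat none of the 6 genes tested was called. Gpd1 had 473 and 610 FPKM in bat iBAT at 10 °C, against 620 and 674 FPKM at 30 °C (-0.17 ± 0.29, adjusted p = 0.643). Agpat2 had 549 and 415 FPKM at 10 °C, against 456 and 506 FPKM at 30 °C (0.09 ± 0.31, adjusted p = 0.996). The Agpat2 groups overlapped and those of Gpd1 did not. At 30 °C both genes were among the most abundant of the 7 in this depot. Gpd2 had 61.6 and 25.1 FPKM at 10 °C, against 75.5 and 38.3 FPKM at 30 °C (-0.34 ± 0.40, adjusted p = 0.573). Here the females were above the males at both temperatures. Gk was the exception in size, with 16.9 and 16.9 FPKM at 10 °C, against 5.33 and 6.71 FPKM at 30 °C. Its groups did not overlap, and the change of 1.46 ± 0.35 missed the threshold (adjusted p = 0.0770).

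Lpin1 was high in bat iBAT at both temperatures, with 222 and 247 FPKM at 10 °C, against 209 and 223 FPKM at 30 °C (0.22 ± 0.17, adjusted p = 0.748). Abhd5 had 82.2 and 113 FPKM at 10 °C, against 78.8 and 80.1 FPKM at 30 °C (0.37 ± 0.26, adjusted p = 0.586). In bat iBAT limma called 0 of the 6 members tested, where 1.22% of all genes were called higher and 0.98% lower. Among these members 1, Gk, had an unadjusted p under 0.05. Without either of the bat aWAT libraries at 10 °C, which enter only the estimate of the spread, Gk was called (adjusted p = 0.0116 and 0.0115).

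Mogat1 was not tested in the bat, since it reached 1 FPKM in 1 of 12 libraries. It lay between 0 and 0.458 FPKM in 11 libraries and at 5.60 FPKM in the male of iBAT at 10 °C, beside 0.310 FPKM in the female. With no filter on low values its change in bat iBAT was 1.47 ± 0.59 (adjusted p = 0.270). A bat gene listed near 0 is not taken as absent here.

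In bat sWAT no member was called either. Lpin1 had 90.0 and 84.8 FPKM at 10 °C, against 117 and 124 FPKM at 30 °C, without overlap (-0.53 ± 0.17, adjusted p = 0.371). Agpat2 had 643 and 975 FPKM at 10 °C, against 723 and 1116 FPKM at 30 °C (-0.25 ± 0.31, adjusted p = 0.889). Gpd1 had 942 and 832 FPKM at 10 °C, against 608 and 871 FPKM at 30 °C (0.21 ± 0.29, adjusted p = 0.792). Both sets of groups overlapped. Gpd2 was barely detected, with 1.60 and 1.44 FPKM at 10 °C, against 1.25 and 0.725 FPKM at 30 °C. Gk was lower still, with 0.116 and 0.131 FPKM at 10 °C, against 0.282 and 0.147 FPKM at 30 °C. Abhd5 had 59.3 and 81.7 FPKM at 10 °C, against 98.2 and 67.2 FPKM at 30 °C. Limma called 0 of the 6 members, against 0.943% of all genes called higher and 0.0726% lower, and 1 member, Lpin1, had an unadjusted p under 0.05.

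The abdominal fat of the bat showed another pattern: Gpd2 and Gk rose steeply, whereas Gpd1 and Agpat2 were not called. Gpd2 had 27.2 and 29.4 FPKM in bat aWAT at 10 °C, against 2.87 and 3.80 FPKM at 30 °C, a ratio of means of 8.47 (2.90 ± 0.40, adjusted p = 0.0023). Gk had 18.3 and 6.65 FPKM at 10 °C, against 0.427 and 0.446 FPKM at 30 °C (3.22 ± 0.35, adjusted p = 0.000812). Neither pair of groups overlapped, and the female had the higher Gk in the cold. Leaving out any 1 of the 4 aWAT libraries kept both calls, with Gpd2 between 2.71 and 3.07 and Gk between 2.45 and 3.99. Ucp1 in these libraries lay at 7184 and 2939 FPKM at 10 °C, against 3.18 and 2.67 FPKM at 30 °C, with the female also above the male in the cold.

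Gpd1 in bat aWAT had 468 and 765 FPKM at 10 °C, against 542 and 682 FPKM at 30 °C, with overlap (0.11 ± 0.29, adjusted p = 0.968). Agpat2 had 639 and 698 FPKM at 10 °C, against 700 and 1096 FPKM at 30 °C (-0.25 ± 0.31, adjusted p = 0.417). Lpin1 had 222 and 230 FPKM at 10 °C, against 138 and 177 FPKM at 30 °C (0.67 ± 0.17, adjusted p = 0.0625). Lpin1 in the cold thus stood apart from the warm libraries but short of the threshold. Abhd5 had 84.7 and 120 FPKM at 10 °C, against 85.0 and 81.3 FPKM at 30 °C (0.41 ± 0.26, adjusted p = 0.484). Of the 6 genes, 2 were called higher and 0 lower, against 8.66% of all genes called higher and 6.67% lower. The fat cell markers summed to 2861 and 3036 FPKM in bat aWAT at 10 °C, against 3646 and 4877 FPKM at 30 °C. The part of fat cell content in the changes of bat aWAT was not tested.

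The cold change of bat aWAT was set against those of the other bat depots. Relative to sWAT it was larger for Gk (3.38 ± 0.49, adjusted p = 0.0085), Gpd2 (2.60 ± 0.57, adjusted p = 0.0462) and Lpin1 (1.19 ± 0.24, adjusted p = 0.0484), 3 of 6 members, where 2.68% of all genes were called higher. The calls of Gpd2 and Lpin1 were close to the threshold: without any 1 of 7 of the 8 libraries of these depots, and with 0.1 added to FPKM in place of 1, only Gk was called; leaving out any other 1 of the bat libraries left 2. For iBAT minus aWAT, where 0.336% of all genes were called, 0 of 6 members were called and 2 had an unadjusted p under 0.05. These were Gpd2 (-3.21 ± 0.57, adjusted p = 0.0566) and Gk (-1.74 ± 0.49, adjusted p = 0.223). For iBAT minus sWAT, where 0.571% of all genes were called, 0 of 6 were called and 2 had an unadjusted p under 0.05, Gk (1.64 ± 0.49, adjusted p = 0.317) and Lpin1 (0.75 ± 0.24, adjusted p = 0.402). The 3 differences share libraries and are not independent of each other.

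**Figure D2:**
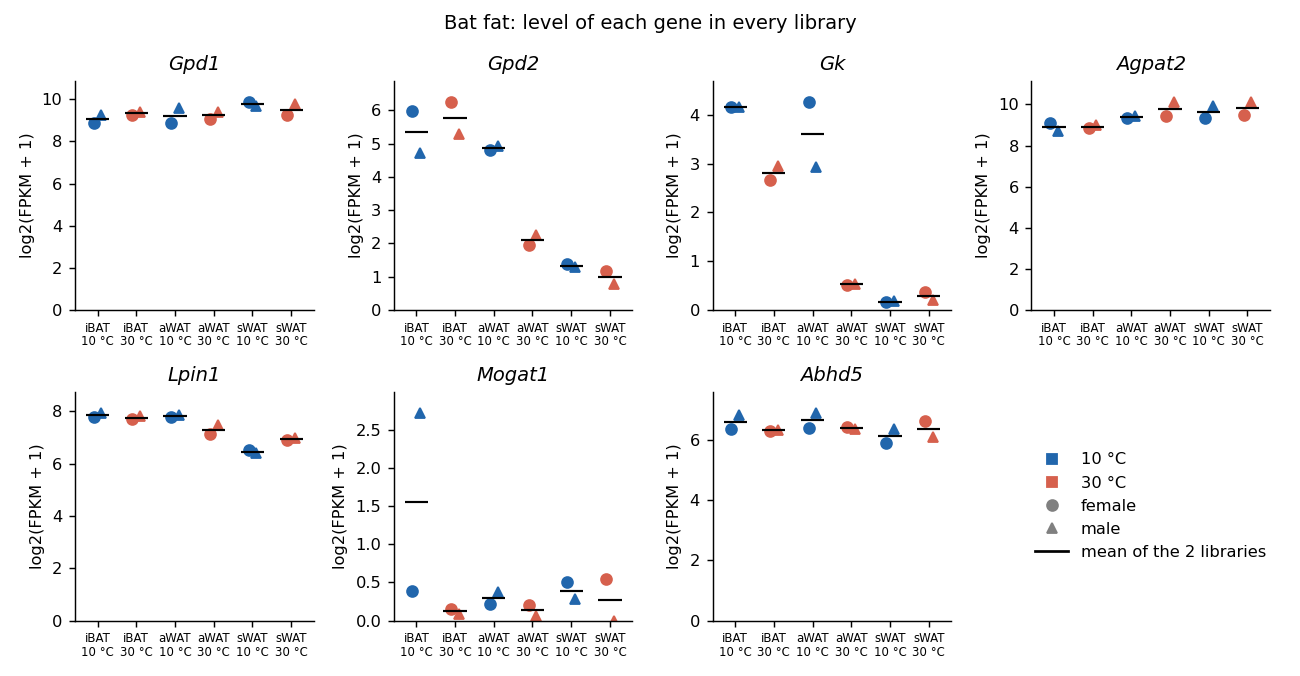
Level of each of the 7 genes in the 12 bat libraries as log2(FPKM + 1), by depot, with 10 °C left of 30 °C, circles for females, triangles for males and a bar at the mean of the 2 libraries. Gpd2 and Gk are near the floor in sWAT and in warm aWAT and reach 27.2 to 29.4 and 6.65 to 18.3 FPKM in cold aWAT. Over all bat libraries Gpd1 runs from 468 to 942 FPKM, Agpat2 from 415 to 1116 FPKM and Abhd5 from 59.3 to 120 FPKM.

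The fat depots of the warm mouse differed most in Gpd2, which had 61.4 and 67.4 FPKM in iBAT, against 6.10 and 7.77 FPKM in sWAT (3.62 ± 0.18, adjusted p = 0.00076). Gpd1 was also higher in iBAT, at 659 and 596 FPKM, against 88.0 and 287 FPKM in sWAT (2.55 ± 0.53, adjusted p = 0.0181), as was Lpin1 (2.11 ± 0.36, adjusted p = 0.0114). The Gpd1 call was lost without the iBAT female (adjusted p = 0.0826) or male (adjusted p = 0.0767) at 30 °C, and the Lpin1 call without that male (adjusted p = 0.0695). Mogat1 ran the other way, with 1.48 and 3.28 FPKM in iBAT, against 4.95 and 12.8 FPKM in sWAT (-0.90 ± 0.44, adjusted p = 0.0264). That p belongs to the difference before the median of all genes is taken off (-1.48), and the Mogat1 call was lost under median-ratio scaling (adjusted p = 0.173) and quantile normalization (adjusted p = 0.258), with the 4 warm libraries alone (adjusted p = 0.0599), and without the iBAT female (adjusted p = 0.138) or the sWAT male (adjusted p = 0.102). Its difference ran from -1.56 to -0.26 without 1 library. Between these depots at 30 °C, 3 members were called higher, where 10.7% of all genes were, and 1 lower, where 48% were. Under median-ratio scaling 2461 genes were higher and 2290 lower, against 1144 and 5126 as deposited. Agpat2, with 55.9 and 44.2 FPKM in iBAT, against 26.1 and 57.5 FPKM in sWAT, overlapped between the depots. At 10 °C, where 2.32% of all genes were called higher, Gpd2 alone of the 7 was called, at 180 and 219 FPKM in iBAT, against 63.7 and 77.9 FPKM in sWAT (1.95 ± 0.18, adjusted p = 0.0043).

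In the bat at 30 °C, Gpd2 and Gk separated brown fat from both white depots. Gpd2 had 75.5 and 38.3 FPKM in iBAT, against 1.25 and 0.725 FPKM in sWAT (4.87 ± 0.40, adjusted p = 6.3e-05). Gk had 5.33 and 6.71 FPKM in iBAT, against 0.282 and 0.147 FPKM in sWAT (2.60 ± 0.35, adjusted p = 0.00076). Lpin1 was likewise higher in iBAT, at 209 and 223 FPKM, against 117 and 124 FPKM in sWAT (0.90 ± 0.17, adjusted p = 0.0062). Of the 6 members, 3 were called higher where 11% of all genes were. Against aWAT at 30 °C, Gpd2 (3.82 ± 0.40, adjusted p = 0.00041) and Gk (2.44 ± 0.35, adjusted p = 0.0021) were higher in iBAT, 2 of 6 members where 7.66% of all genes were called higher. Agpat2 ran the other way, at 456 and 506 FPKM in iBAT, against 723 and 1116 FPKM in sWAT and 700 and 1096 FPKM in aWAT. The groups did not overlap, but neither difference was called (-0.83 ± 0.31, adjusted p = 0.0630, and -0.71 ± 0.31, adjusted p = 0.0801). Between warm aWAT and sWAT, 0 of 6 members were called, against 0.889% of all genes, and 1, Gpd2, had an unadjusted p under 0.05 (1.05 ± 0.40, adjusted p = 0.443).

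At 10 °C the levels of Gpd2 and Gk in the abdominal depot of the bat lay within or near those of brown fat. Between iBAT and aWAT, 0 of 6 members were called and 0 had an unadjusted p under 0.05, where 0.816% of all genes were called. Gpd2 had 61.6 and 25.1 FPKM in iBAT, against 27.2 and 29.4 FPKM in aWAT, with overlap (0.61 ± 0.40, adjusted p = 0.673). Gk had 16.9 and 16.9 FPKM in iBAT, against 18.3 and 6.65 FPKM in aWAT, also with overlap (0.70 ± 0.35, adjusted p = 0.558). The standard errors leave room for differences well above these values, so the test does not show that the depots are equal. Set against sWAT at 10 °C, both depots were higher in the same 3 genes. In iBAT, Gpd2 was higher by 4.26 ± 0.40, Gk by 4.25 ± 0.35 and Lpin1 by 1.67 ± 0.17 (adjusted p = 7.5e-05, 3.8e-05 and 0.000196), where 13.2% of all genes were called higher. In aWAT, Gpd2 was higher by 3.64 ± 0.40, Gk by 3.54 ± 0.35 and Lpin1 by 1.46 ± 0.17 (adjusted p = 0.000319, 0.000171 and 0.000519), where 10.4% of all genes were called higher. These 2 comparisons share the sWAT libraries.

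The species differed in their cold changes. In iBAT, the change of the bat minus that of the mouse was -4.44 ± 0.50 for Agpat2 (adjusted p = 0.00083), -3.29 ± 0.60 for Gpd1 (adjusted p = 0.0117) and -2.26 ± 0.49 for Gpd2 (adjusted p = 0.0317). These were 3 of 6 members, where 1.11% of all genes were called lower. Under median-ratio scaling 183 genes were higher and 208 lower, against 353 and 104 as deposited. Gk did not differ beyond its error in iBAT (-0.76 ± 0.78, adjusted p = 0.753), nor did Abhd5 (-0.20 ± 0.47, adjusted p = 0.992), and Lpin1 missed the threshold (-1.24 ± 0.39, adjusted p = 0.148). Without 1 library the Gpd2 difference ran from -2.90 to -1.63 and was not called in every case, with adjusted p-values up to 0.122.

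In sWAT the difference took in more genes. The bat's cold change was below the mouse's by -4.75 ± 0.50 for Agpat2 (adjusted p = 0.00043), -3.95 ± 0.78 for Gk (adjusted p = 0.0107), -3.77 ± 0.60 for Gpd1 (adjusted p = 0.0046), -3.24 ± 0.49 for Gpd2 (adjusted p = 0.0041) and -3.24 ± 0.39 for Lpin1 (adjusted p = 0.0013). Abhd5 missed the threshold (-1.66 ± 0.47, adjusted p = 0.0715). These were 5 of 6 members lower, where 4.64% of all genes were called lower. In bat sWAT, Gk lay at 0.116 to 0.282 FPKM and Gpd2 at 0.725 to 1.60 FPKM. Both were near the floor there, where the added 1 shrinks any change, so their differences rest mostly on the mouse change. For Gk, the mouse sWAT libraries at 10 °C were far apart, at 8.30 and 49.5 FPKM. Under median-ratio scaling 408 genes were higher and 703 lower, against 1553 and 436 as deposited. Species and the assignment of bat reads to mouse genes cannot be told apart in these differences.

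**Figure D3:**
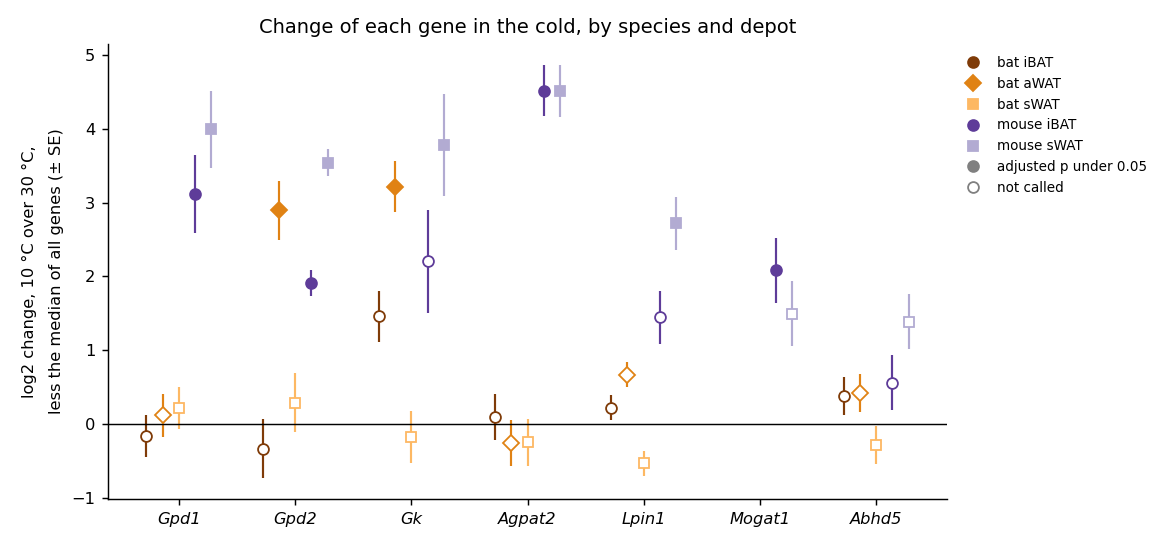
Log2 change at 10 °C over 30 °C of each gene, less the median of all genes, ± its standard error, for bat iBAT, aWAT and sWAT and for mouse iBAT and sWAT (2 libraries a group; filled symbols have an adjusted p under 0.05). Agpat2 and Gpd1 are near 0 in the bat depots and high in the mouse depots, whereas Gpd2 and Gk are also high in bat aWAT (2.90 and 3.22); Mogat1 was not tested in the bat.

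The balance of the shuttle enzymes followed these changes. The FPKM ratio of Gpd1 to Gpd2 in bat aWAT was 17.2 and 26.0 at 10 °C, against 189 and 179 at 30 °C, with Gpd2 called higher and Gpd1 not called. In bat iBAT it was 7.67 and 24.3 at 10 °C, against 8.21 and 17.6 at 30 °C, and in bat sWAT 589 and 576 at 10 °C, against 488 and 1203 at 30 °C. Cold aWAT thus lay near iBAT on this measure and far from sWAT. In mouse iBAT the ratio moved the opposite way, to 25.1 and 19.8 at 10 °C, against 10.8 and 8.85 at 30 °C. In mouse sWAT it was 27.6 and 28.5 at 10 °C, against 14.4 and 36.9 at 30 °C, with overlap. Likewise Agpat2 stood at 12.4 and 9.78 times Lpin1 in mouse iBAT at 10 °C, against 1.61 and 1.06 times at 30 °C.

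In order of FPKM, Gpd1 was the highest of the 7 in all 8 mouse libraries. In the 4 cold ones and in warm sWAT Agpat2 came next, and in warm iBAT Gpd2 did. In the bat, Agpat2 or Gpd1 was first or second in all 12 libraries, followed by Lpin1, Abhd5 and Gpd2 in that order, with Gk and Mogat1 last. The order of Agpat2 and Gpd1 changed between the female and the male in 3 of 6 bat groups, so they are not separated beyond the spread. Across bat libraries Gpd2 ran from 0.725 to 75.5 FPKM, Gk from 0.116 to 18.3 FPKM, Mogat1 from 0 to 5.60 FPKM and Abhd5 from 59.3 to 120 FPKM.

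The genes of the table whose log2(FPKM + 1) was most like each member are given as a description over 8 mouse or 12 bat libraries that share depots and temperatures. In the mouse, Gpd1 was most like Clstn3 (r = 0.998), Gpd2 most like Acacb, the mitochondrial acetyl-CoA carboxylase (r = 0.996), and Agpat2 most like Pmvk, an enzyme of the mevalonate pathway (r = 0.993). Lpin1 was most like Tlcd1 (r = 0.988), Gk most like Krt79, a keratin (r = 0.986), Abhd5 most like Mccc1 (r = 0.980) and Mogat1 most like Alg3 (r = 0.970). In the bat, Gk was closest to Rap1gap (r = 0.994) and to Mlycd, the malonyl-CoA decarboxylase (r = 0.993), Gpd2 to Pptc7, a mitochondrial phosphatase (r = 0.990), and Lpin1 to Cox7a2l and Ndufa7, of the respiratory chain (r = 0.980 and 0.974). Agpat2 in the bat was closest to Tsc22d2 (r = 0.972), Gpd1 to Sgms2 (r = 0.923) and Abhd5 to Amigo1 (r = 0.870). Among the members themselves, Gpd1 went with Gpd2 in the mouse (r = 0.931) but not in the bat (r = -0.55), where Gpd2 went with Gk (r = 0.906) and Lpin1 (r = 0.876) and against Agpat2 (r = -0.75).

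Around the 7 genes, a list of 28 genes of the pathway, which includes them, had 24 in the table; Gpd1l, Gpat2, Lpin3 and Dgat2 were not analysed here. In the cold, 6 of 24 were called higher and 1 lower in mouse iBAT, with a median of 0.80, where 2.84% of all genes were higher and 11.2% lower. In mouse sWAT 12 were higher and 0 lower, with a median of 1.51, where 7.06% of all genes were higher and 26.8% lower. In the bat, 22 were tested: 6 were higher and 1 lower in aWAT, with a median of 0.32, where 8.66% of all genes were higher and 6.67% lower. In bat iBAT (median -0.01) and sWAT (median 0.06) 0 were called. Of all genes, 1.22% were called higher and 0.98% lower in bat iBAT, and 0.943% and 0.0726% in bat sWAT. With shares this low, 0 of 22 is not read as a result about the pathway.

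The acyltransferases that begin the pathway on glycerol 3-phosphate took different parts. In mouse iBAT Gpam, the mitochondrial one, had 104 and 125 FPKM at 10 °C, against 44.0 and 44.6 FPKM at 30 °C (1.64 ± 0.19, adjusted p = 0.0121), and Gpat3 had 0.869 and 1.46 FPKM at 10 °C, against 3.74 and 4.33 FPKM at 30 °C (-0.93 ± 0.30, adjusted p = 0.0416). Neither pair of groups overlapped, but the Gpat3 call was lost under median-ratio scaling (adjusted p = 0.129) and quantile normalization (adjusted p = 0.220). It was also lost with no filter on low values (adjusted p = 0.0642) and with 5 added to FPKM (adjusted p = 0.160). G0s2, an inhibitor of the lipase Pnpla2, had 460 and 147 FPKM at 10 °C, against 50.6 and 38.8 FPKM at 30 °C (2.82 ± 0.57, adjusted p = 0.0349). The female was by far the highest. The G0s2 call was lost with no filter (adjusted p = 0.0560) and under quantile normalization (adjusted p = 0.0575). None of these 3 calls held without any 1 of the iBAT libraries, fits in which 1 to 3 of all genes were called.

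In mouse sWAT G0s2 (2.69 ± 0.57, adjusted p = 0.0276), the monoacylglycerol lipase Mgll (1.87 ± 0.41, adjusted p = 0.0348), Agpat3, a relative of Agpat2 (1.84 ± 0.25, adjusted p = 0.0147), and Gpam (1.71 ± 0.19, adjusted p = 0.0114) were called higher beside the members. The G0s2 call was lost in 5 of 17 alternatives and the Mgll call in 9 of 17. For Mgll these included no filter (adjusted p = 0.0525) and quantile normalization (adjusted p = 0.0944). The change of Mgll ran from 1.25 to 2.51 without 1 library, with the lowest value without the female at 30 °C. In bat aWAT Gpat4 had 231 and 136 FPKM at 10 °C, against 31.3 and 26.5 FPKM at 30 °C (2.72 ± 0.25, adjusted p = 0.000419), and Agpat3 had 286 and 227 FPKM at 10 °C, against 114 and 93.6 FPKM at 30 °C (1.43 ± 0.19, adjusted p = 0.0024). Agpat3 was thus called in an abdominal depot in which Agpat2 was not. Gpam was also higher there (1.90 ± 0.50, adjusted p = 0.0419) and Gpat3 lower (-1.56 ± 0.50, adjusted p = 0.0462), with adjusted p-values up to 0.299 and 0.322 when 1 library was left out. Whether any of these changes differs between species was not tested for the genes outside the 7.

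**Figure D4:**
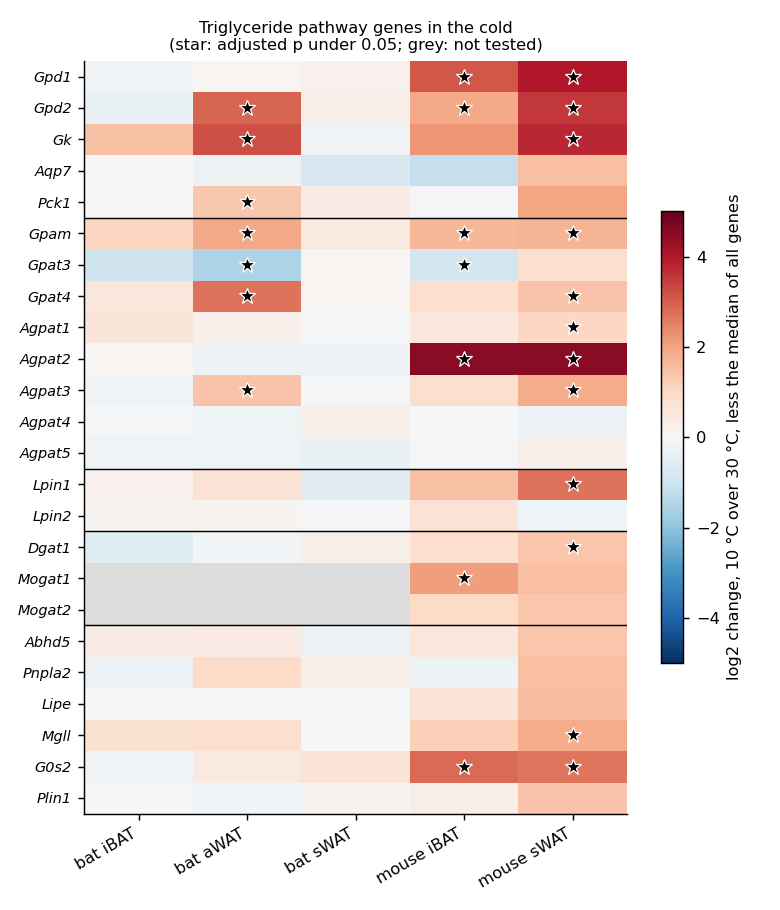
Log2 change at 10 °C over 30 °C, less the median of all genes, of the 24 pathway genes in the table, in rows grouped by step, for 3 bat and 2 mouse depots in columns; stars mark an adjusted p under 0.05 and grey cells were not tested. Stars fall on 7 genes in bat aWAT and on 0 in bat iBAT and sWAT, and on 7 in mouse iBAT and 12 in mouse sWAT.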

How the data were processed

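Fat of 8 mouse and 12 bat libraries was sequenced; per the labels' protocols, RNA was taken with a lipid tissue kit and libraries followed a standard Illumina protocol. The authors deposited FPKM, for mouse gene identifiers in both species; CASAVA 1.8 is named in the submitters' processing notes, and the aligner, counter, build, strand and handling of bat reads are not given in the sources used. Symbols were matched for 14723 of 14871 identifiers. Read totals are unknown, so no counting intervals were made. Low values of a gene were taken as whole multiples of 1 fragment to estimate relative depth.

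Values were taken as log2(FPKM + 1) for genes that reached 1 FPKM in 2 or more libraries of a species (10689 in mouse, 11025 in bat, 9400 in both for the species differences). Limma 3.58.1 in R 4.3.3, with a variance trend and 1 mean per group, was fitted over all libraries of a species (residual degrees of freedom 4 in mouse, 6 in bat) or over all 20 (10). Tests are two-sided and Benjamini-Hochberg adjusted over all genes. Printed changes are less the median of all genes; calls are those without this shift. Scripts were tested on simulated data. A permutation test of 2 against 2 cannot reach the threshold. Female and male share no animal, so sex entered only as an alternative.

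The members, the pathway list and the markers were chosen with earlier results of these data known. Named beside the members were up to 4 other pathway genes per cold comparison, those called with the largest change, and for likeness the nearest genes by Pearson's r, up to 3 a member. Alternatives covered the pseudocount, the filter, scaling, the variance trend, the libraries fitted, sex and leaving out each library.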

Additional observations from a re-analysis of the deposited data

Results flagged for a closer look

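Tests of the difference itself between 2 cold changes set 11 values of the members apart. Within the bat, the change of aWAT exceeded that of sWAT for Gk (3.38 ± 0.49, adjusted p = 0.0085), Gpd2 (2.60 ± 0.57, adjusted p = 0.0462) and Lpin1 (1.19 ± 0.24, adjusted p = 0.0484). Between the species in iBAT, the change of the bat was below that of the mouse for Agpat2 (-4.44 ± 0.50, adjusted p = 0.00083), Gpd1 (-3.29 ± 0.60, adjusted p = 0.0117) and Gpd2 (-2.26 ± 0.49, adjusted p = 0.0317). Between the species in sWAT it was below that of the mouse for Agpat2 (-4.75 ± 0.50, adjusted p = 0.00043), Gk (-3.95 ± 0.78, adjusted p = 0.0107), Gpd1 (-3.77 ± 0.60, adjusted p = 0.0046), Gpd2 (-3.24 ± 0.49, adjusted p = 0.0041) and Lpin1 (-3.24 ± 0.39, adjusted p = 0.0013). Of all genes, 2.68% were called higher in the first of these comparisons, and 1.11% and 4.64% lower in the 2 between species. In bat sWAT, Gk and Gpd2 were near the floor at both temperatures. Gpd2 is the only member in all 3 sets. Its call was lost in 11 of 21 alternatives for bat aWAT minus sWAT and in 7 of 29 between the species in iBAT. The Lpin1 call for bat aWAT minus sWAT was lost in 15 of 21. Groups of 2 libraries were too small for a check of single outlying samples.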

How the results depend on the processing

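The 38 called values of the members kept their direction under all 806 alternatives run for them and lost the threshold in 72. Many of these alternatives could not change a direction. The variance trend, the groups fitted, sex as a term and a library left out from outside the comparison alter only the spread. Of the cold changes within a depot, 21 that were not called passed the threshold in 16 of 421 alternatives and changed sign in 15. Other values that were not called were followed only through the counts of members. With sex as a term (the replicate block, where the number stands for sex and pairs no animals) the members called were 5 in mouse iBAT cold, 7 in mouse sWAT, 3 in bat aWAT and, for the response of bat iBAT minus aWAT, 1 (Gpd2). That last count was also 1 with a filter at 5 FPKM and under quantile normalization. Quantile normalization gave 2 members in mouse iBAT cold, 2 between mouse iBAT and sWAT at 30 °C, and 5 (3 higher, 2 lower) between bat iBAT and sWAT at 10 °C. Fitting only the groups compared gave 0 members in mouse sWAT cold, where 0 of all 10689 genes were called, and 2 for bat sWAT minus mouse sWAT, where 16 of all 9400 genes were higher and 35 lower. In mouse iBAT cold the same setting also called Gk and Lpin1. Adding 0.1 in place of 1 gave 1 for bat aWAT minus sWAT. Calls over all genes are not given here for sex as a term, the filter or the 0.1 added. Under quantile normalization they are given below for the mouse cold changes only. Member counts without such a share are not read as particular to the members.

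With 1 library left out at a time, the members called ran from 0 to 5 in mouse iBAT cold (0 without any of the 4 iBAT libraries, where 1 to 3 of all genes were called), from 0 to 1 in bat iBAT cold (Gk, without either aWAT library at 10 °C), from 2 to 5 between mouse iBAT and sWAT at 30 °C (2 without either iBAT library at 30 °C), from 1 to 2 at 10 °C (2 without any of the sWAT libraries), and from 0 to 1 between bat iBAT and aWAT at 10 °C (1 without the aWAT female at 10 °C). For the differences of cold changes they ran from 0 to 2 in mouse iBAT minus sWAT (2 without the sWAT female at 10 °C), from 0 to 1 in bat iBAT minus aWAT (Gpd2, without the aWAT male or the iBAT female at 10 °C) and from 1 to 2 in bat aWAT minus sWAT.

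Signs changed, among values not called, under quantile normalization for Agpat2 in bat iBAT (-0.14) and sWAT (0.038), Lpin1 in bat iBAT (-0.018) and Gpd1 in bat aWAT (-0.24). Without 1 library the change of Agpat2 ran from -0.61 to 0.088 in bat aWAT, from -0.12 to 0.30 in iBAT and from -0.59 to 0.093 in sWAT, that of Gpd1 from -0.14 to 0.37, from -0.35 to 0.0052 and from -0.070 to 0.50 in the same depots, and that of Gpd2 in bat iBAT from -0.98 to 0.30. The causes of these shifts were not tested.

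The median of all genes moved with scaling. In mouse iBAT cold it was -0.30 as deposited and -0.03 under median-ratio scaling, with 304 genes higher and 1202 lower as deposited, 687 and 381 under median-ratio scaling and 369 and 236 under quantile normalization. In mouse sWAT it was -0.37 and 0.01, with 755 higher and 2867 lower, then 1188 and 710, then 1177 and 1236. In bat aWAT it was -0.14 and -0.02, with 955 and 735, then 1066 and 469. In bat iBAT it was -0.10 and 0.02, with 135 and 108, then 145 and 56. Between depots, as deposited and then under median-ratio scaling, genes higher and lower were 248 and 2946, then 1344 and 1001, for mouse iBAT against sWAT at 10 °C, 844 and 1386, then 1066 and 984, for bat iBAT against aWAT at 30 °C, and 1450 and 2950, then 2064 and 1986, for bat iBAT against sWAT at 10 °C. With 2 libraries a group, changes of low genes such as Gk in white fat rest on few fragments, and depth could only be set relative to other libraries.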
